A study of Mus musculus with 4 samples.

Results

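Across the cells of mouse popliteal vessels, 10 genes of chemokine signalling were followed: the chemokine ligands Cxcl12, Cxcl14, Cxcl1, Ccl2, Ccl4, Ccl7, Ccl11 and Ccl19, and the atypical receptors Ackr1 and Ackr3. They were chosen by name from the 32286 features of the deposited count matrices, where the 10 names cover 11 rows. The second row named Ccl19 (ENSMUSG00000094661), on the unplaced scaffold JH584294.1, had 0 unique molecular identifiers (UMIs, one tag per captured RNA molecule) in all 3 libraries, so every Ccl19 value below belongs to ENSMUSG00000071005. Each gene is described by the cell class that carried its RNA, with the spread over the 3 libraries. On GRCm38 the genes lie at chr6:117168535-117181367 (Cxcl12), chr13:56288643-56296551 (Cxcl14, minus strand), chr5:90891241-90893115 (Cxcl1), chr11:83662584-83664683 (Ccl4), chr4:42754525-42756577 (Ccl19, minus strand), chr1:173331886-173333750 (Ackr1, minus strand) and chr1:90203980-90216751 (Ackr3), on the plus strand where no strand is named, and Ccl2, Ccl7 and Ccl11 on chromosome 11 as given below.

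Single-cell RNA was captured with a droplet method that reads the 3′ end of transcripts. The cells came from adult mice with a Cre recombinase and EGFP at the Wt1 locus, WT1GFPCre [Wt1tm1(EGFP/cre)Wtp/J], crossed to the Ai9-tdT reporter, the Cre-dependent allele Gt(ROSA)26Sortm9(CAG-tdTomato)Hze on B6.Cg, and all groups share these alleles and a footpad injection of 4% Evans blue. The 2 PLV libraries held popliteal lymphatic vessels, each from its own pool of 2 mice, digested for 30 min with collagenase I, Dispase II, DNAse and Liberase. The mixed library held PLV cells and cells labelled BV from 1 pool of 2 mice, digested for 60 min with collagenase I and Dispase II alone, and its hashtags did not separate the vessels, so it was treated as 1 sample. Vessel, digestion, run, mice and Cell Ranger version therefore differ together between the 2 kinds of library, and their effects cannot be told apart.

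After filtering, 1909 cells with 9577642 UMIs remained in PLV replicate 1, 516 with 3390010 in PLV replicate 2 and 994 with 7770796 in the mixed library, and the kept cells of any 2 libraries shared 0 barcodes. Each library was clustered alone without the genes of the chemokine lists, and clusters were named from marker genes. Fibroblast-like cells numbered 386, 82 and 244 in the order PLV replicate 1, PLV replicate 2, mixed library, which all later triplets of values keep, blood endothelial-like cells 264, 60 and 133, lymphatic endothelial-like cells 193, 66 and 53, muscle-like cells 442, 109 and 304, pericyte-like cells 39, 28 and 52, and immune cells 212, 37 and 35. All 12 fibroblast, muscle and blood endothelial markers were at least 2-fold above the other cells in every library, as were 11 of 12 pericyte markers and 9 to 12 of 12 lymphatic endothelial markers. Among the fibroblast-like cells, clusters with markers of the Pi16-type (adventitial) subset held 112, 24 and 46 cells. They had 9, 10 and 6 Pi16-type markers raised, and 0, 0 and 2 markers of the planned Col4a4 subset. Against the other fibroblast-like cells, Sfrp2, Acta2, Tagln and Myh11 led the mixed cluster, and Mrgprg and Col6a5 that of PLV replicate 1. Whether the 3 clusters hold the same kind of cell was not tested. The names of the other planned fibroblast subsets could not be given. Levels are given as CPM (UMIs of the gene scaled to a class total of 1000000), with exact 95% Poisson intervals where stated, which cover counting error only.

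Chemokines are small secreted proteins that guide leukocytes and progenitors along gradients by binding G protein-coupled receptors. Some, such as CXCL12, CXCL14 and CCL19, are made at rest in stroma and endothelium, while others, such as CXCL1 and CCL2, are induced by inflammatory signals. Atypical receptors bind chemokines without G protein signalling: ACKR3 takes up CXCL12 and shapes its gradients, and ACKR1 on venular endothelium binds and carries many inflammatory chemokines of both the CC and CXC families.

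The genes differed in how much of their RNA sat in 1 class. Fibroblast-like cells held 88.7%, 99.3% and 89.4% of the Cxcl14 UMIs in the 3 libraries. They also held 91.5% and 89.8% of the Ccl11 UMIs in the PLV libraries but 44.2% in the mixed library. Immune cells held 98.9%, 99.5% and 99.4% of the Ccl4 UMIs. Blood endothelial-like cells held 56.7%, 75.4% and 75.7% of the Cxcl12 UMIs. The largest share of Cxcl1 in 1 class was 56.0%, in the fibroblast-like cells of PLV replicate 2.

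**Figure D1:**
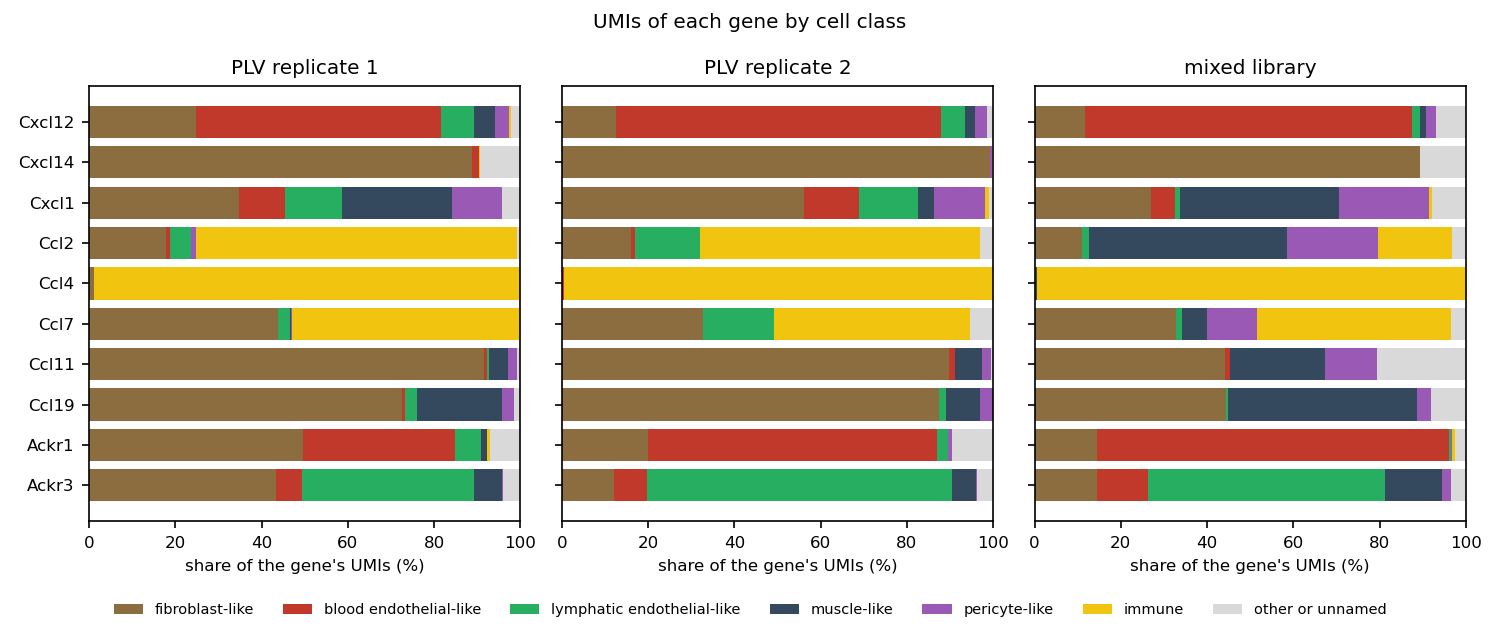
Share of each gene's UMIs (x axis, percent) in each cell class, 1 panel per library. Ccl4 is almost wholly in immune cells in all 3 libraries, Cxcl14 in fibroblast-like cells, and the muscle-like share of Ccl2, Ccl11 and Ccl19 is larger in the mixed library than in the PLV libraries.

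Cxcl12, the ligand of CXCR4 and ACKR3 that retains progenitors and lymphocytes in tissue niches, was highest in capillary-like blood endothelial cells. Its level there was 3512 CPM in PLV replicate 1, 4722 in PLV replicate 2 and 7204 in the mixed library. All 3 values lay above every other named class. The next class by its mean over the libraries was the fibroblast-like cells outside the Pi16-type subset (999, 1274 and 545 CPM), and the ratio of the class means was 5.48. The order of the lower classes was not the same in each library. Cells with a UMI made up 95.1%, 100% and 98.3% of the capillary-like cells and still 95.1%, 87.2% and 98.2% after each cell was thinned to 1500 UMIs. For comparison, T or NK cells should lack the gene. Cells of the clusters so named had a UMI in 1.82% of 55 cells in PLV replicate 1 and in 0 of the 8 and 6 cells of the other libraries. The 6 mixed cells also had 4 of 8 mast cell markers raised, so their name is uncertain. Median depths were 2652, 5569 and 2770 UMIs against 4266, 8764 and 8640 in capillary-like cells. Macrophages of PLV replicate 1 had 131 CPM (78.6 to 204), with a UMI in 19.6% of 46 cells, and held 19 of the 20 immune UMIs there.

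Inside the blood endothelium Cxcl12 was lower in venular-like than in capillary-like cells. Venular-like cells had 616, 478 and 885 CPM, and arterial-like cells 1289 CPM in PLV replicate 1 and 113 in the mixed library. The arterial-like cluster had 10 arterial and 1 venular markers raised in PLV replicate 1 but 3 and 2 in the mixed library. A mixed cluster of 41 cells with Sema3g and Sox17 among its leading genes was left unnamed. The mixed arterial-like name is therefore uncertain. In venular-like against other blood endothelial-like cells the log2 fold change was -2.50 (SE 0.15, edgeR adjusted p = 1.46e-07), lower in 3 of 3 libraries. Lymphatic endothelial-like cells had 194, 183 and 171 CPM, close to each other; the mixed value (144 to 202 CPM) was not above the free RNA of that library, whose level is given below.

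In the stroma, pericyte-like cells carried Cxcl12 at 1083, 716 and 542 CPM, a range that overlapped that of the fibroblast-like cells outside the Pi16-type subset. Pi16-type cells had 349, 401 and 210 CPM (173 to 253 in the mixed library), below the other fibroblast-like cells in each library (log2 fold change -1.50, SE 0.20, adjusted p = 0.00826). Muscle-like cells had 119, 89.4 and 45.2 CPM, the last below the 213 CPM (185 to 243) of free RNA in 185412 near-empty droplets of the mixed library. The mixed Pi16-type value was not above the free RNA either. Free RNA was measured in the mixed library alone, and droplets of this kind from the PLV libraries were not analysed here. Its CPM describe the make-up of the RNA in those droplets, and the share of free RNA in a kept cell was not measured. Cxcl14 had 51.0 CPM there, yet 0 UMIs in the mixed muscle-like cells (at most 1.54 CPM). A class value at or below the free RNA, here and later, is therefore not shown to be background.

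Cxcl14, a chemokine of resting skin and connective tissue, was carried by a minority of fibroblast-like cells. Fibroblast-like cells outside the Pi16-type subset had 226, 1030 and 424 CPM, yet only 18.2%, 24.1% and 29.8% of them had a UMI. In the mixed library the level reached 1553 CPM in a cluster of 18 cells led by C3, C4b and Gpx3, while a cluster of 94 cells led by Col4a4, Tspan11 and Olfml3 had 26.3 CPM. In PLV replicate 2 a single cell held 42.2% of the UMIs of the non-Pi16 fibroblasts, and without it their level was 626 CPM.

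In Pi16-type cells Cxcl14 had 1.52, 112 and 550 CPM, with no overlap of the 3 values. One cell held 84.2% of the PLV replicate 2 count, and the level there was 19.5 CPM without it. Against other fibroblast-like cells the log2 fold change was -2.33 (SE 0.94, adjusted p = 0.345), and without the mixed library it was -4.24 (adjusted p = 0.000903). Muscle-like and lymphatic endothelial-like cells had 0 Cxcl14 UMIs in all 3 libraries, which for muscle allows up to 1.65, 4.71 and 1.54 CPM at the upper Poisson limit.

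Cxcl1, a neutrophil attractant that acts through CXCR2, had its highest mean over the libraries in pericyte-like cells, but the order was not the same in each library: in PLV replicate 2 the Pi16-type cells were higher. Its level in pericyte-like cells was 354 CPM (272 to 452), 285 CPM (198 to 396) and 641 CPM (557 to 734), in 28.2%, 28.6% and 40.4% of cells. All 3 values exceeded the other cells of their library, which had 51.5 to 106 CPM, with a log2 fold change of 2.31 (SE 0.21, adjusted p = 5.43e-12). Immune cells had 0, 3 and 6 UMIs, each time from a single cell where there were any. Within fibroblasts, clusters led by Apod and Smoc2 reached 586 CPM in PLV replicate 1 and 723 CPM in PLV replicate 2, above the pericyte-like cells of the same libraries. Pi16-type cells had 39.5, 655 and 79.6 CPM, and 1 cell held 63.1% of the PLV replicate 2 count, leaving 262 CPM without it.

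The promoter of Cxcl1 is shown because it is the one promoter, of the 6 genes with an entry in the RefSeq table (Cxcl12, Cxcl14, Cxcl1, Ccl19, Ackr1 and Ackr3), that holds a match to a κB-like motif, and Cxcl1 is the inflammatory gene among them. Both strands of the 250 bases before each gene's start in that table were searched. The letters sought were κB-like (GGGA, then any 2 bases, then TTCC), a TATA box (TATAAA) and a GATA site (AGATAA). For Cxcl1, Ccl19 and Ackr1 these starts differ from the gene positions given above. The windows of Ccl19 (chr4:42756366-42756615) and Ackr1 (chr1:173333504-173333753) lie mostly inside those positions. The κB-like letters occur in 1.21% of the 32851 promoters of the table. The window of Cxcl1 (GRCm38.p6, chr5:90890995-90891244, plus strand) holds them once on each strand, as overlapping matches, the first of which starts 71 bases before the gene's start. Capitals mark them. Ccl2, Ccl4, Ccl7 and Ccl11 have no entry in the table. A match describes letters in this window and not binding.
Cxcl1: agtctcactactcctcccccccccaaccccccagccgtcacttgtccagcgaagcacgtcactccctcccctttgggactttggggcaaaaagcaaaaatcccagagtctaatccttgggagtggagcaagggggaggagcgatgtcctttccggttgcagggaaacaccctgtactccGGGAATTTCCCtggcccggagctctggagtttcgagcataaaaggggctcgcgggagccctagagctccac

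Ccl2, Ccl7 and Ccl11 lie next to each other on chromosome 11 of GRCm38, at chr11:82035571-82037453, chr11:82045712-82047525 and chr11:82057823-82062955, all on the plus strand. Their RNA was not led by the same cells. Ccl2 and Ccl7, attractants of monocytes through CCR2 and related receptors, were led by immune cells, and Ccl11 (eotaxin, which attracts eosinophils through CCR3) by fibroblasts.

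Ccl2 was highest in mast cells and macrophages. Mast cells had 2580 CPM (2087 to 3153) in PLV replicate 1 and 876 CPM (453 to 1530) in the 5 mast cells of PLV replicate 2. Macrophages had 1642 CPM in PLV replicate 1, 1068 CPM in the 5 macrophages of PLV replicate 2 and, in the mixed library, 240 CPM, with a UMI in 60.9%, 60.0% and 31.0% of cells. The PLV values lay above the mixed value. The mixed macrophage cluster was led by Cd74 and H2-Ab1, with 8 of 10 dendritic cell markers raised against 6 and 7 in PLV. Macrophage markers summed to 19679, 22176 and 12044 CPM, and the part of this make-up was not tested. The clusters named T or NK had 0 Ccl2 UMIs in all 3 libraries, though the name of the mixed cluster is uncertain. Against all other cells, immune cells had a log2 fold change of 4.51 (SE 0.31, adjusted p = 8.28e-15), higher in 3 of 3 libraries, and of 3.81 without PLV replicate 1 or 5.25 without the mixed library.

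Outside the immune cells Ccl2 was carried by few cells. Pericyte-like cells had 33.7, 0 and 160 CPM (120 to 210 in the mixed library), with 40.4% of the mixed UMIs in 1 cell. Muscle-like cells had 0, 0 and 47.3 CPM. In the mixed library muscle-like and pericyte-like cells held 45.9% and 21.1% of the Ccl2 UMIs and immune cells 17.1%, whereas immune cells held 74.3% and 65.0% in the PLV libraries. Pi16-type cells had 82.0, 70.8 and 28.4 CPM, above the other fibroblast-like cells (24.6, 16.0 and 8.28 CPM) in each library, with a log2 fold change of 1.82 (SE 0.30, adjusted p = 0.0168). Both mixed values lie below the free RNA of that library (55.0 CPM, 41.4 to 71.5). In PLV replicate 2 and the mixed library 1 cell held 91.7% and 80.0% of the Pi16-type count, and DESeq2 gave an adjusted p of 0.0740. Lymphatic endothelial-like cells had 9.62, 16.2 and 4.83 CPM and blood endothelial-like cells 6 UMIs in all.

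Ccl7 was highest in macrophages as well, at 1181, 596 and 577 CPM, with mast cells at 353 CPM in PLV replicate 1. The 596 CPM is 24 UMIs in 5 cells, and without 1 cell with 15 of them the level was 257 CPM. The 5 mast cells of PLV replicate 2 had 1 UMI. Pi16-type cells had 105, 88.5 and 73.9 CPM, but 36 of the 39 UMIs in the mixed library came from 1 cell, and the mixed interval (52.6 to 101 CPM) overlaps that of the free RNA (39.7 to 69.3 CPM). Blood endothelial-like cells had 0 UMIs in the 3 libraries together; with a floor of 3 UMIs over all 3, that is at most 0.0223 times the level of the other cells. Among fibroblast-like cells of PLV replicate 1, Ccl7 was detected in 60.0% of the 20 cells with Ccl2 and in 13.1% of the rest, at median depths of 6439 and 3888 UMIs. In the mixed library the shares were 44.4% of 9 cells and 2.98% of the rest, at 13158 and 7179 UMIs, so the cells with Ccl2 were also the deeper ones.

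Ccl11 was detected in most fibroblast-like cells of the PLV libraries. Pi16-type cells had 853 and 814 CPM and other fibroblast-like cells 724 and 719 CPM in PLV replicates 1 and 2, with a UMI in 87.5%, 79.2%, 75.9% and 82.8% of cells. In the mixed library the same subsets had 58.8 and 123 CPM, so the ranges over libraries are wide and the subsets did not differ beyond them (log2 fold change -0.15, SE 0.26, adjusted p = 0.933). The Apod and Smoc2 clusters stood highest, at 1648 CPM in PLV replicate 1 and 1446 CPM in PLV replicate 2. Pericyte-like cells had 174, 57.0 and 176 CPM. A mixed cluster of 10 cells led by Apod, Thbs4 and Sfrp5, with 5 of 9 perineurial and 4 of 12 fibroblast markers raised, had 805 CPM (590 to 1074). It carried the perineurial-like name, but Apod also leads the Apod and Smoc2 clusters, and the perineurial-like clusters of the PLV libraries were led by Sfrp5 and Cldn1, so no comparison between them is made. Schwann-like cells had 0 Ccl11 UMIs in all 3 libraries.

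Ccl4, an attractant of monocytes, NK and T cells, was almost confined to immune cells, which held 574 of its 578 UMIs in kept cells. Macrophages had 309 CPM in PLV replicate 1, 0 in the 5 of PLV replicate 2 and, in the mixed library, 120 CPM. Without the cell with most UMIs the level was 177 CPM in PLV replicate 1 and, in the mixed library, 35.4 CPM, which lies within the interval of the free RNA there (29.4 to 55.6 CPM). A cluster of 40 cells in PLV replicate 1 had 191 CPM, or 129 CPM without 1 cell; it had 10 of 10 dendritic cell markers raised but also 7 of 8 neutrophil markers, and S100a9, Il1b and S100a8 led it. In PLV replicate 2, 166 of the 183 UMIs sat in 1 of 8 T or NK cells. Of the 308 mixed UMIs, 285 sat in 1 cell of a cluster of 6, which took the T or NK name from 7 of 12 markers but also had 4 of 8 mast cell markers raised, so the type of that cell is not given. Immune cells against all others gave a log2 fold change of 11.67 (SE 0.39, adjusted p = 5.65e-24), higher in 3 of 3 libraries, and of 5.91 at the coarser clustering resolution of 1.

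Ccl19, the ligand of CCR7 that guides dendritic cells and T cells, was highest in fibroblast-like cells but also reached the muscle. Fibroblast-like cells outside the Pi16-type subset had 127, 144 and 83.5 CPM and Pi16-type cells 56.2, 118 and 53.1 CPM, ranges that overlap. Muscle-like cells had 22.8, 6.39 and 61.6 CPM, with a UMI in 7.69%, 3.67% and 31.2% of cells, or 3.11%, 2.94% and 7.82% after thinning to 1500 UMIs. Immune cells had 0 UMIs in all 3 libraries. Among fibroblast-like cells Cxcl14 was found in 27.3%, 45.0% and 66.2% of cells with Ccl19 and in 9.06%, 11.3% and 22.9% of the rest, though cells with Ccl19 were deeper (6375 against 3603 UMIs at the median in PLV replicate 1).

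Muscle-like clusters did not share these ligands evenly. Ccl11 stood at 95.2 CPM (73.9 to 121) in the PLV replicate 1 cluster led by Actg2, Hmcn2 and Enpp2, at 68.4 CPM (42.8 to 104) in its counterpart of PLV replicate 2 and at 92.5 CPM (74.7 to 113) in the mixed cluster led by H2-M9, Ntm and Enpp2. In the clusters with Pln among their 3 leading genes it had 0 or 1 UMI in each of the 3 libraries. Ccl19 had a similar layout, at 67.2, 15.5 and 72.6 CPM in the Enpp2 clusters and at most 1 UMI in each Pln cluster, and it reached 87.1 CPM in the mixed cluster led by P2rx1, Ccn3 and Col12a1. Cxcl1 ran the other way in PLV replicate 1 and the mixed library. In PLV replicate 1 it had 135 CPM (110 to 163) in the 124 cells of the Nr4a3, Rrad and Pln cluster but 38.3 CPM (25.5 to 55.4) in the 164 cells of the other Pln cluster, led by Rgs4, against 8.40 CPM in the Enpp2 cluster. In the mixed library it had 547 CPM in the 48 cells of the Pln and Sorbs2 cluster and 121 CPM in the P2rx1 cluster, against 80.6 CPM in the Enpp2 cluster. In PLV replicate 2 the 2 clusters had 15.2 and 12.4 CPM, with overlapping intervals. These are cells of single libraries, so the differences between clusters were not tested.

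**Figure D2:**
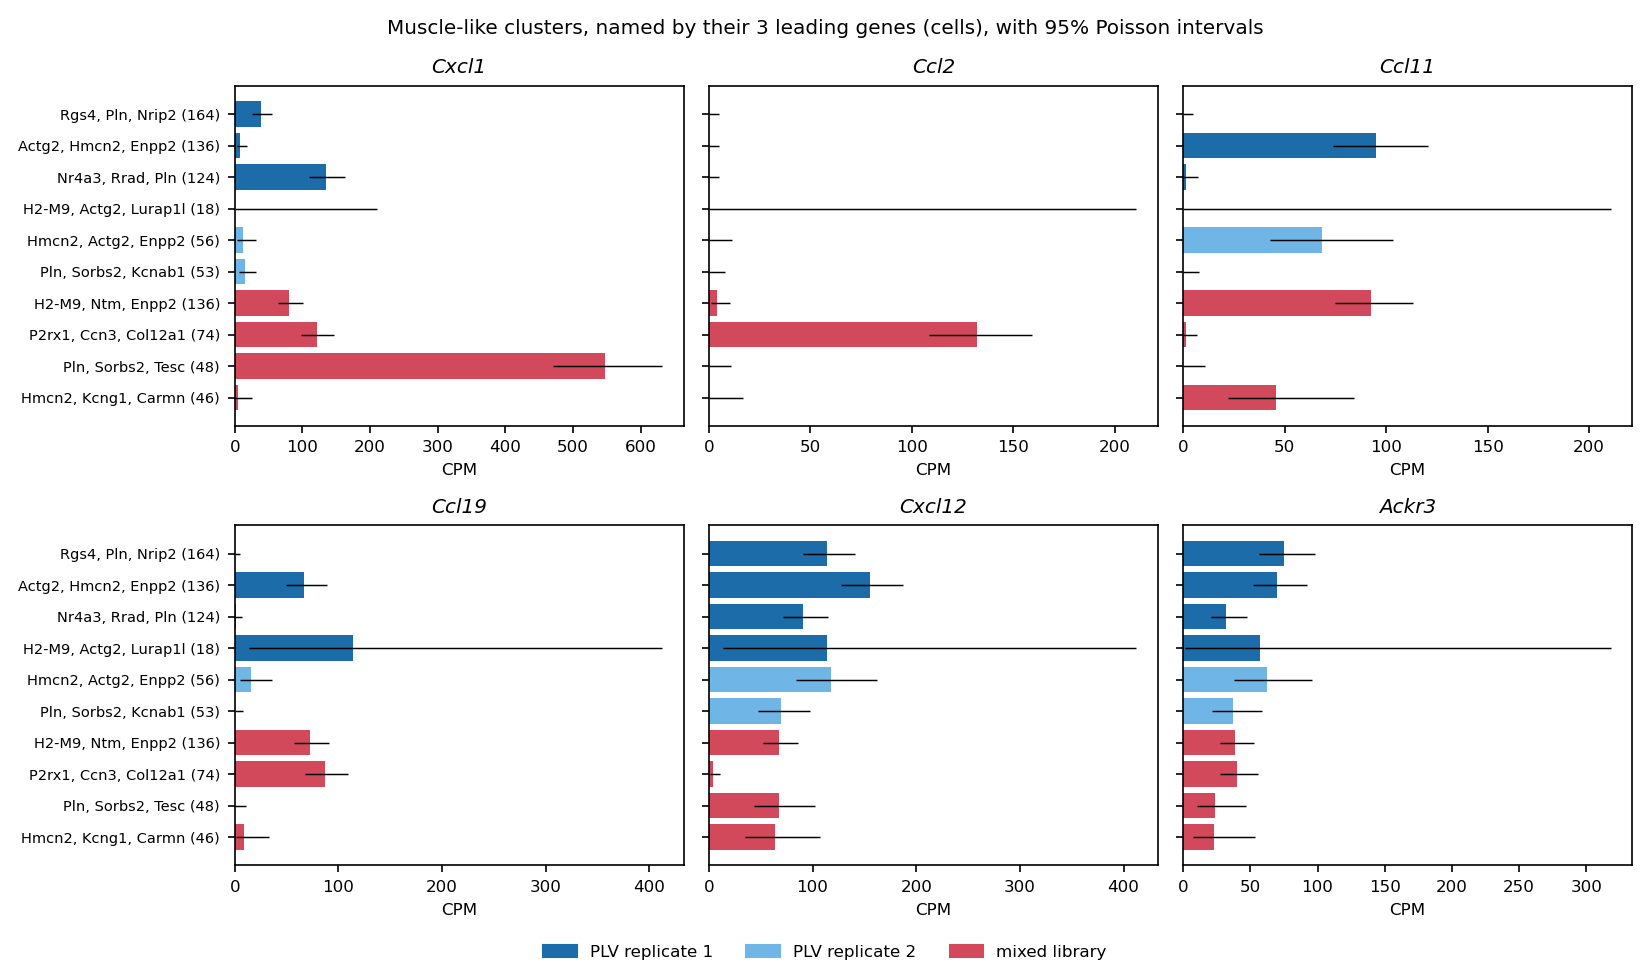
CPM (x axis, linear, from 0) of 6 genes in each muscle-like cluster, named by its 3 leading genes with its number of cells; colours mark the library and lines the 95% Poisson intervals. Ccl11 is at 45.8 CPM or more in the 4 clusters with Hmcn2 or Enpp2 among those 3 genes and at 0 or 1 UMI in the others, and Cxcl1 is highest in the mixed Pln, Sorbs2 and Tesc cluster.

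Ackr1, the scavenger and carrier of inflammatory chemokines, marked venular-like cells. Its level was 324 CPM (273 to 381) in PLV replicate 1, 491 CPM (385 to 616) in PLV replicate 2 and 688 CPM (619 to 763) in the mixed library, in 65.2%, 91.7% and 84.4% of venular-like cells. Capillary-like cells had 0, 3 and 0 UMIs. All 3 venular-like values lay above every other named class, and the ratio to the next class mean was 5.35. Venular-like against other blood endothelial-like cells gave a log2 fold change of 7.96 (SE 0.35, adjusted p = 4.60e-09), with 578 against 5 UMIs, and the value ranged from 6.37 (cells of at least 1000 UMIs) to 9.63 (without the cell with most UMIs).

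Fibroblast-like cells also carried Ackr1. Pi16-type cells had 149, 94.4 and 37.9 CPM, in 49.1%, 33.3% and 32.6% of cells, and the other fibroblast-like cells 88.2, 28.0 and 30.4 CPM. After thinning to 1500 UMIs the Pi16-type shares were 17.1%, 5.26% and 2.27%, and muscle-like cells, with a UMI in 1.13%, 0% and 0% of cells at median depths of 4586, 6727 and 7491 UMIs, give the background. The Pi16-type median depths were 5220, 6665 and 10997 UMIs. Schwann-like cells had 48.6, 38.4 and 32.9 CPM, ranges that overlap those of the fibroblasts. The Pi16-type excess over other fibroblast-like cells was not called (log2 fold change 0.80, SE 0.27, adjusted p = 0.216), although it was higher in 3 of 3 libraries.

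Ackr3, which removes CXCL12 and other ligands, had 2 main sites. Pi16-type cells had 864, 383 and 94.8 CPM, in 92.9%, 66.7% and 45.7% of cells. Lymphatic endothelial-like cells had 341, 507 and 426 CPM, in 56.5%, 68.2% and 75.5% of cells. The Pi16-type values spread more widely over the libraries than the lymphatic endothelial ones, and the class means, 447 and 425 CPM, do not differ beyond that spread. Arterial-like cells had 155 CPM in PLV replicate 1 and, in the mixed library, where that name is uncertain, 223 CPM. The 15 perineurial-like cells of PLV replicate 1 had 428 CPM and the 6 of PLV replicate 2 had 157 CPM (51.0 to 366). The mixed cluster led by Apod and Thbs4 had 175 CPM with 7 of its 10 UMIs in 1 cell, and immune cells had 2 UMIs in all.

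Within the blood endothelium venular-like cells had 22.5, 39.8 and 15.3 CPM of Ackr3, below the other blood endothelial-like cells as a whole in each library (log2 fold change -1.82, SE 0.29, adjusted p = 0.000438). Capillary-like cells had 76.6, 96.2 and 20.3 CPM. In the mixed library the capillary-like interval (11.4 to 33.5 CPM) overlapped the venular-like one (6.60 to 30.1 CPM), and the arterial-like cells stood above both. Neither the capillary-like nor the venular-like value there was above the free RNA (23.0 CPM, 14.6 to 34.5). Within fibroblasts Ackr3 was higher in Pi16-type cells than in the other fibroblast-like cells, at 239, 59.9 and 29.7 CPM, in each library (log2 fold change 2.02, SE 0.24, adjusted p = 0.00481), and the interval of the last of these values overlaps that of the free RNA too. In edgeR the call was lost at the clustering resolution of 1 (1.71, adjusted p = 0.108) and with no library term. In PLV replicate 1, where lymphatic endothelial-like cells formed 2 clusters, the one led by Ccl21a and Lyve1 had 516 CPM and the one led by Nts and Clca3a1 had 322 CPM. Muscle-like cells had 58.4, 47.3 and 35.6 CPM. The last of these had an interval of 28.4 to 44.0 CPM, which overlaps that of the free RNA (14.6 to 34.5 CPM).

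The Ackr3 window is printed because it is the sole one of the 6 with TATAAA, letters that 12.4% of the 32851 promoters hold in as many bases. The match starts 8 bases before the start in the table (GRCm38.p6, chr1:90203730-90203979, plus strand) and stands in capitals. AGATAA was in 0 of the 6 windows and in 9.99% of all.
Ackr3: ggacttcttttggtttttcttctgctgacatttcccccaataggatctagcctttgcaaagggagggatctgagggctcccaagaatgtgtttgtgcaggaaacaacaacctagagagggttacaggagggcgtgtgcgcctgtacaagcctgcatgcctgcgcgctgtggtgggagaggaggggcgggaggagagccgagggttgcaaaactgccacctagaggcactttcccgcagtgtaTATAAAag

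**Figure D3:**
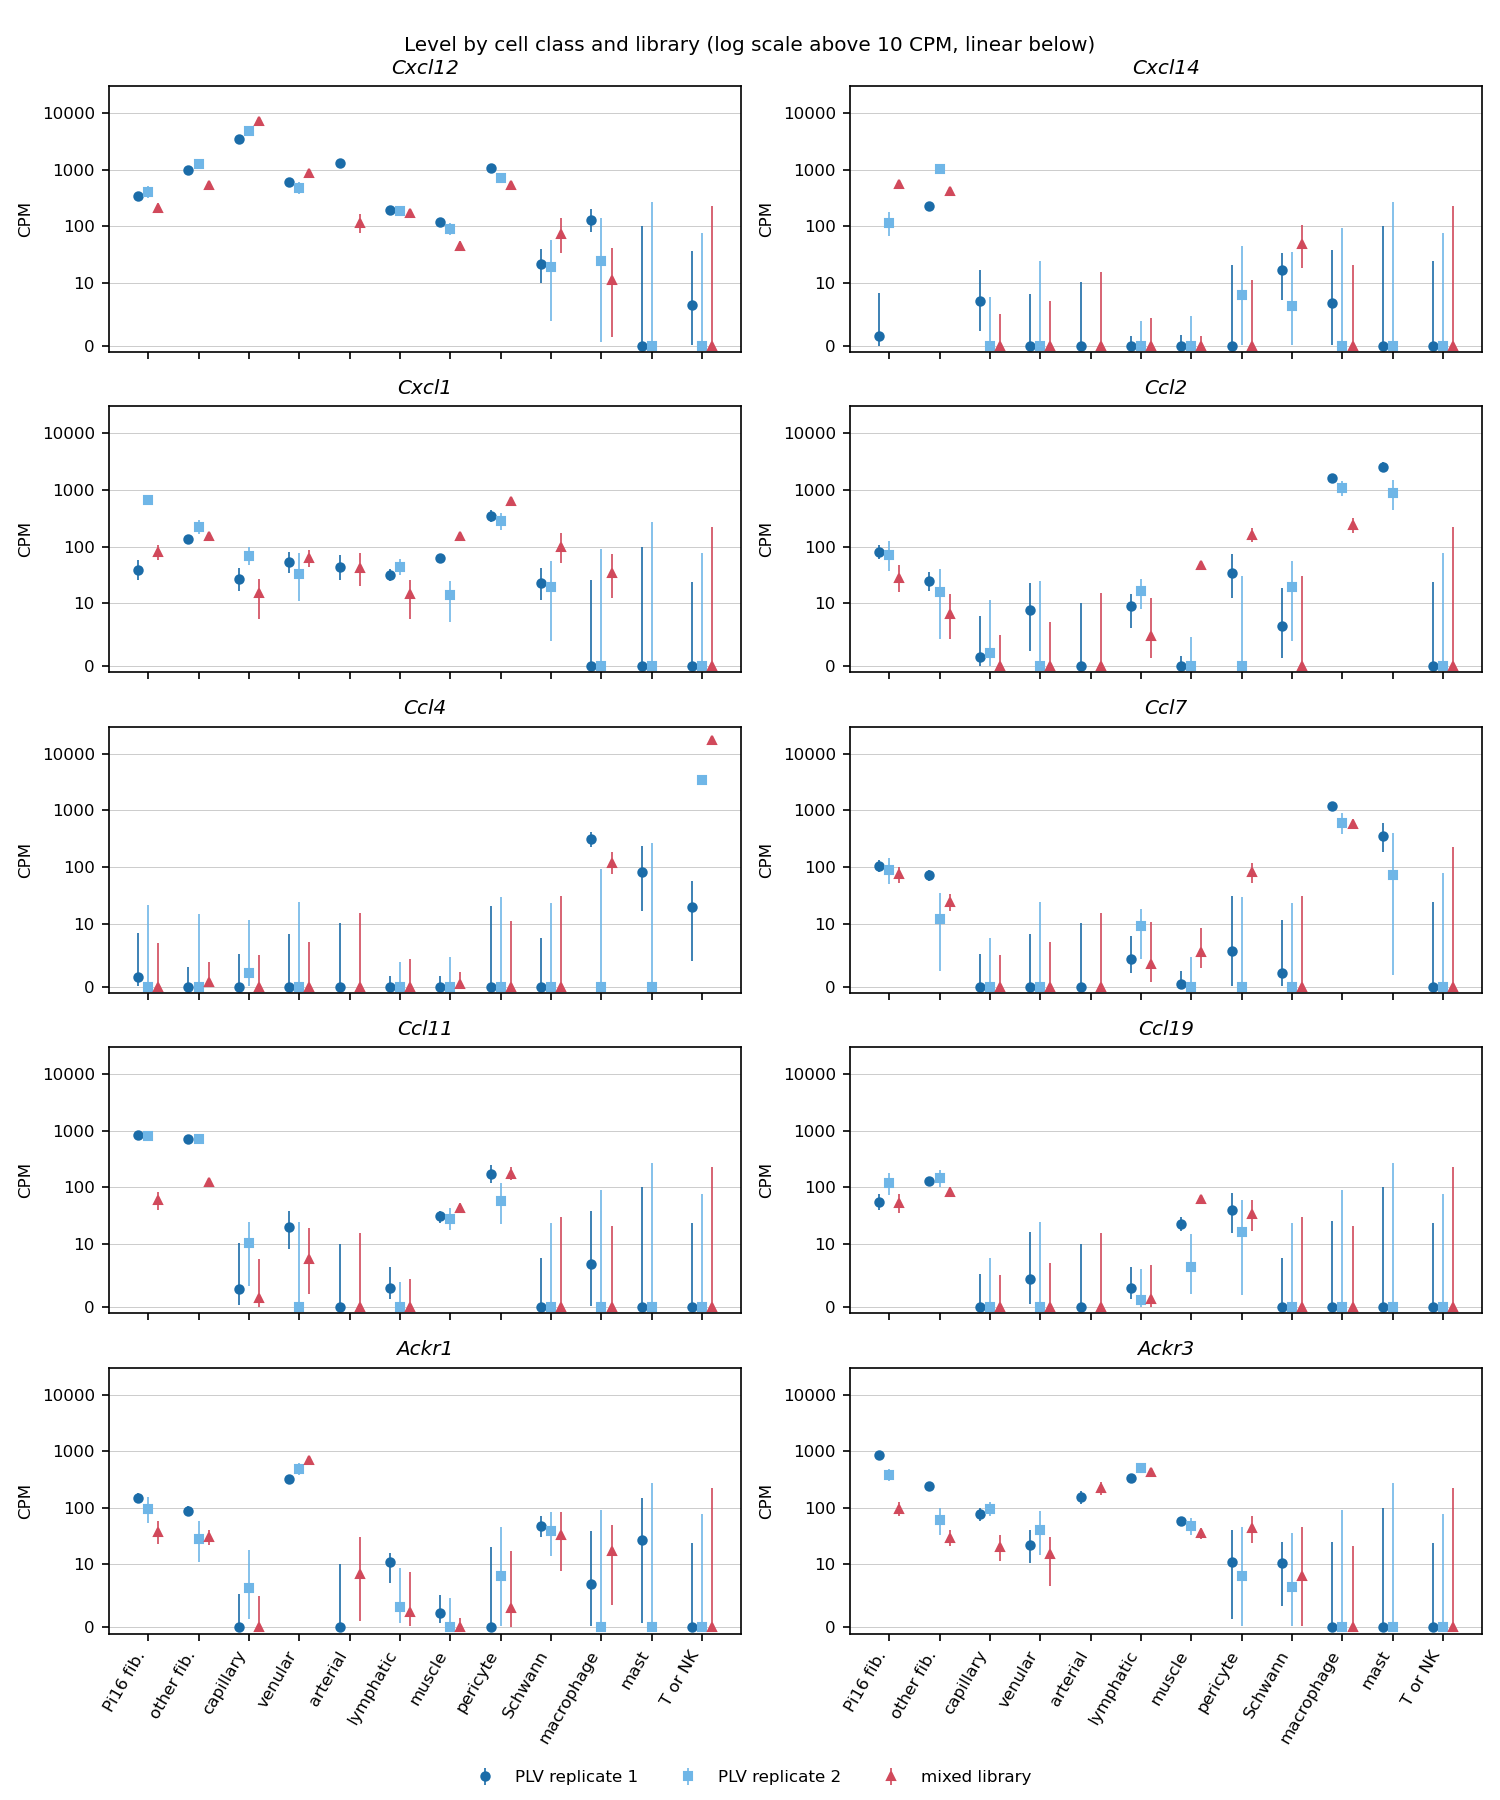
CPM of each gene (y axis, log scale above 10 CPM and linear below) by cell class with at least 5 cells; points are the 3 libraries and lines 95% Poisson intervals. Cxcl12 in capillary-like and Ackr1 in venular-like cells lie above every other named class in all 3 libraries, and the mixed library lies below both PLV libraries for Ccl11 and Ackr3 in both fibroblast groups.

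Each class was then compared with all other cells of the same library, with edgeR's quasi-likelihood test on summed counts of 3 libraries and the library as a term. A gene was called at an adjusted p under 0.05 over all genes tested. The class names come from other genes of the same cells, so the shares of all genes called are large and give the background for each count. Of the 10 genes, 6 were called in fibroblast-like cells, where 29.2% of all genes tested were called. Cxcl14 (6.07, SE 0.79, adjusted p = 0.00120), Ccl11 (4.66, SE 0.96, 0.00965), Ccl19 (3.37, SE 0.65, 0.00701), Cxcl1 (1.74, SE 0.52, 0.0424) and Ccl7 (1.60, SE 0.27, 0.00367) were higher on the log2 scale, and Ccl4 was lower. The Ccl11 call was lost without PLV replicate 2 (adjusted p = 0.102), and the Cxcl1 call without PLV replicate 1 (0.0870) or PLV replicate 2 (0.113). Without the mixed library Ackr1 (1.87) and Ackr3 (1.16) were called higher as well, and Ccl11 had 5.94, Ccl19 4.28 and Cxcl1 2.35. Cxcl14 had 5.16 and Ccl19 2.65 without PLV replicate 2, and Ccl11 had 3.84 without PLV replicate 1. Cxcl14 also had 5.26 at the clustering resolution of 1, but 7.68 in cells of at least 1000 UMIs and 7.49 with predicted doublets kept.

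In the endothelium most of the ligands were low. All 10 genes were called in blood endothelial-like cells, against 32.5% of all genes: Cxcl12 (3.41, SE 0.20, adjusted p = 4.22e-05) and Ackr1 (2.90, SE 0.45, 0.00231) were higher and the other 8 lower. Ackr1 had 3.73 without PLV replicate 1 and 2.16 without the mixed library. All 10 were called in lymphatic endothelial-like cells too, against 37.0%, where Ackr3 (2.35, SE 0.35, 0.000448) was higher and the other 9 lower. In venular-like against other blood endothelial-like cells 3 of the 4 genes that passed the filter on low counts were called, against 13.3%: Ackr1 higher, Cxcl12 and Ackr3 lower.

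In the mural and nerve cells the calls were mainly downward. In muscle-like cells 7 of 10 genes were called, all lower, against 42.4% of all genes; Cxcl1 (-0.35), Ccl2 (-1.63) and Ccl19 (-0.01) did not pass, and without the mixed library Ccl2 passed as lower (adjusted p = 5.21e-08). In pericyte-like cells 5 were called, against 18.9%: Cxcl1 was higher and Cxcl14, Ccl4, Ackr1 and Ackr3 were lower. In Schwann-like cells 9 were called lower, against 37.3%, with Ackr1 (-0.14, adjusted p = 0.781) the exception. In immune cells all 10 were called, against 42.5%: Ccl2, Ccl4 and Ccl7 (4.36, SE 0.26, 1.15e-16) were higher and the other 7 lower.

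The subset comparison in fibroblasts had a low background. In Pi16-type against other fibroblast-like cells 3 of 9 genes tested were called, against 2.26% of all genes: Ackr3 and Ccl2 higher, Cxcl12 lower. The calls changed with the clustering. At the coarser clustering resolution of 1, Ackr3 had a log2 fold change of 1.71 (adjusted p = 0.108) and Cxcl12 -0.62 (adjusted p above 0.99), and without PLV replicate 2 Cxcl12 had -1.40 (0.0625) and Ccl2 1.76 (0.0743). Ccl2 had 1.94 (edgeR adjusted p = 0.154) at that resolution, and with no library term none of the 3 was called. The muscle markers in Pi16-type cells summed to 79.0 and 47.2 CPM in the PLV libraries and to 957 CPM in the mixed library, with 12 of 12 detected in the last, and their part in these values was not tested.

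The PLV libraries were next set against the mixed library within each class. The mixed arm is 1 library, whose spread is assumed to be that of the 2 PLV libraries. In fibroblast-like cells 2 of 9 genes tested were called, against 15.8% of all genes. Ccl11 was at 770 and 757 CPM in the PLV libraries and at 106 CPM in the mixed library (log2 fold change 2.36, SE 0.42, adjusted p = 1.31e-06). Ackr3 was at 463, 191 and 47.0 CPM (2.30, SE 0.39, 1.58e-07), and in both cases the groups do not overlap. Both were called by DESeq2 and under every other setting tried. The fibroblast-like cells sit in different clusters in the libraries. The Apod and Smoc2 clusters, of 41 and 14 cells, were in the PLV libraries and the Col4a4 and Tspan11 cluster of 94 cells in the mixed library, and Pi16-type cells made up 112 of 386, 24 of 82 and 46 of 244 cells. Ccl11 was at 515 CPM or more in each of the 6 and 3 fibroblast-like clusters of the PLV libraries and at 310 CPM or less in each of the 7 mixed ones. Ackr1, at 110, 54.8 and 32.4 CPM, did not pass (0.91, SE 0.36, adjusted p = 0.0647). Leaving out the cell with most UMIs of each gene added Cxcl14, lower in PLV (-1.18, 0.00738), and Ccl7, higher in PLV (1.12, 0.0361). Muscle markers summed to 93.6 and 105 CPM in PLV fibroblast-like cells and to 363 CPM in those of the mixed library, and their part in the result was not tested.

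In muscle-like cells 5 of 6 genes tested were called, against 16.4%. Ccl2, 1 of the 5, had 0 UMIs in both PLV sums and entered the test through the mixed library alone, so it is described apart below. Of the others, Cxcl1, Ccl11 and Ccl19 were higher in the mixed library. Cxcl1 was at 62.0, 14.1 and 154 CPM (log2 fold change -2.03, SE 0.24, adjusted p = 9.56e-15) and Ccl19 at 22.8, 6.39 and 61.6 CPM (-2.04, SE 0.28, 7.62e-11). Ccl11 differed less, at 30.8, 28.1 and 43.5 CPM (-0.78, SE 0.28, 0.0345), and Cxcl12 was higher in PLV (1.00, SE 0.26, 0.00193). For these 4 genes the mixed value lay outside the range of the PLV values. The PLV values of Cxcl1 and Ccl19 themselves lie far apart, and the SEs, which rest on a spread that edgeR shares across genes, do not carry that gap. Ccl11 did not pass when predicted doublets were kept (-0.35, adjusted p = 0.441). The muscle-like cells also sit in different clusters: those with Pln among their 3 leading genes held 164 and 124 of the 442 cells of PLV replicate 1, 53 of the 109 of PLV replicate 2 and just 48 of the 304 mixed cells, and the P2rx1 cluster of 74 cells was in the mixed library. In the Enpp2 clusters described above, the mixed Ccl11 value lay within the PLV range, and the mixed Ccl19 and PLV replicate 1 intervals (56.9 to 91.3 and 49.6 to 89.1 CPM) overlapped. The part of this cluster make-up in the class differences was not tested. Fibroblast markers summed to 2841, 2628 and 6178 CPM in the muscle-like cells, and their part in these differences was not tested. With DESeq2, Cxcl12, Cxcl1, Ccl11 and Ccl19 did not pass in this comparison (adjusted p from 0.0927 to 0.866).

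Ccl2 was called in muscle-like cells by both tools but rests on few cells. The 551 PLV cells had 0 UMIs, and the 304 mixed cells had 113, of which 63 sat in 1 cell and all in 6 cells. With a floor of 3 UMIs over both PLV libraries the PLV level was at most 0.0210 times the mixed level. The mixed level of 47.3 CPM (39.0 to 56.9) lies within the interval of the free RNA (41.4 to 71.5 CPM). Macrophage markers summed to 5.86 CPM in the mixed muscle-like cells, with C1qa, C1qb, Adgre1 and Csf1r at 0. That sum is over all 304 cells, and the part of macrophage RNA in the 6 cells with Ccl2 was not tested. Of the 113 UMIs, 109 were in the cluster led by P2rx1, Ccn3 and Col12a1.

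Pericyte-like cells had Cxcl1 and Ccl2 in the same direction as muscle, with 2 of 5 genes called against 1.52%. Cxcl1 was higher in the mixed library (-1.22, SE 0.31, adjusted p = 0.0395), as was Ccl2 (33.7, 0 and 160 CPM, -3.21, SE 0.58, 0.00512). Neither passed when predicted doublets were kept (0.0881 and 0.0590), and with DESeq2 Cxcl1 had an adjusted p of 0.342 and Ccl2 was given none. In blood endothelial-like cells 1 of 5 was called, against 4.47%: Ackr1, at 95.2, 122 and 242 CPM, was higher in the mixed library (-1.31, SE 0.28, 0.000364), with DESeq2 at 0.0669. Venular-like cells made up 66 of 264, 12 of 60 and 45 of 133 blood endothelial-like cells, and within them Ackr1 had the levels given above, again highest in the mixed library. In lymphatic endothelial-like cells 0 of 5 were called by edgeR and 0 by DESeq2, against 0.733% of all genes, and 1 (Cxcl1) had an unadjusted p under 0.05. There Ackr3 had a log2 fold change of -0.23 (SE 0.30) and Cxcl12 -0.08 (SE 0.27).

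**Figure D4:**
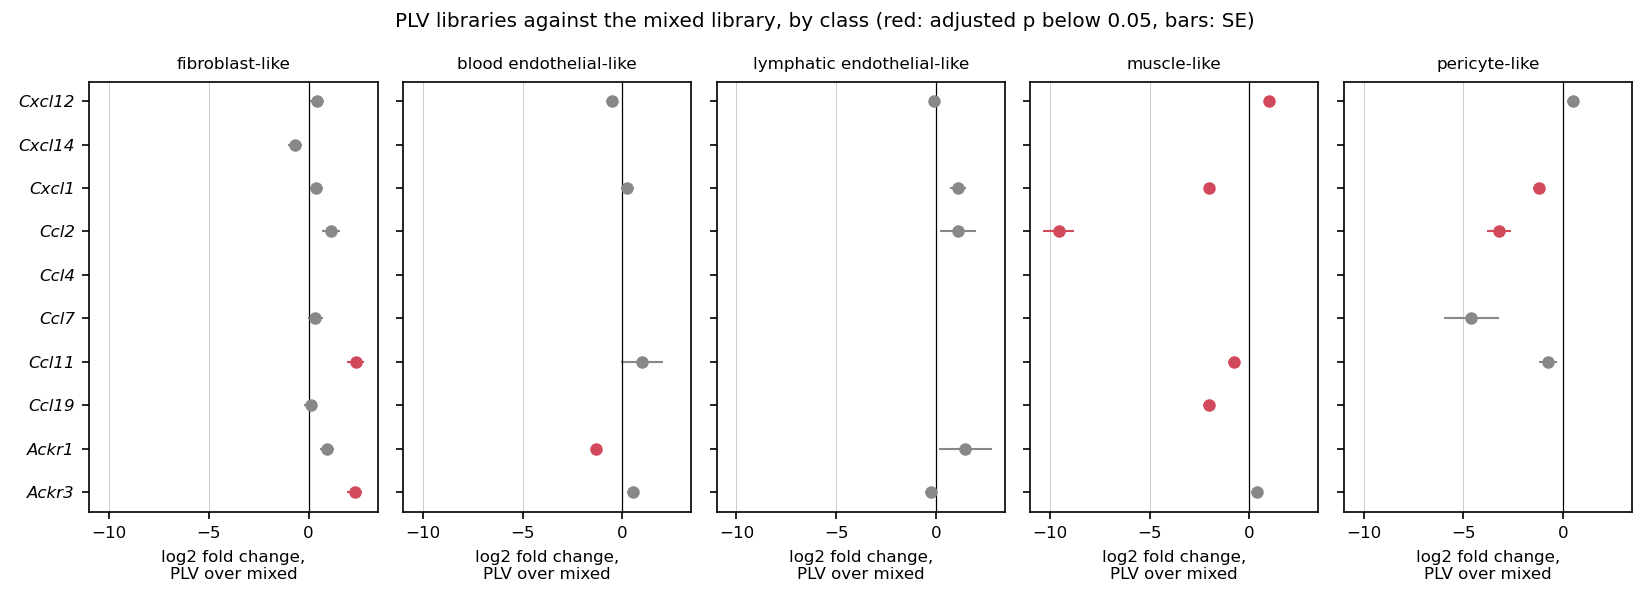
Log2 fold change (x axis) of PLV over mixed, with its SE, for each gene tested in each class; red points have an adjusted p under 0.05. Ccl11 and Ackr3 lie to the right in fibroblast-like cells, and Cxcl1, Ccl2, Ccl11 and Ccl19 to the left in muscle-like cells.

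Whether a gene's PLV to mixed difference itself differed between classes was tested for the 10 pairs of classes with an interaction term in edgeR, fitted over 3 libraries. Each count is over those of the 10 genes in that fit, some of which entered through 1 class alone. For fibroblast-like against muscle-like cells, 6 of the 9 genes passed, against 5.50% of all genes in the fit. Cxcl1, Ccl11, Ccl19 and Ackr3 had a higher PLV to mixed ratio in fibroblasts. Ccl2 also passed, but it had 0 UMIs in the PLV muscle-like cells, and no difference is read from it. Nor is 1 read from Ccl7, which with 1, 0 and 13 UMIs in the muscle-like cells entered through the fibroblast sums alone. For Ccl11 the log2 difference was 3.14 (SE 0.42) and for Ackr3 1.97 (SE 0.39). For fibroblast-like against pericyte-like cells, 4 of the 9 genes passed (Ccl2, Ccl7, Ccl11 and Ackr3), against 1.92%. Ccl7 had 1, 0 and 26 UMIs in the pericyte-like cells, too few in PLV to read a difference from. Ackr3, with 2, 1 and 14 UMIs there, entered through the fibroblast sums alone, and no difference is read from it. Fibroblast-like against blood endothelial-like cells had 2 of the 9 genes in the fit (Ackr1, 2.30, SE 0.41, and Ackr3, 1.79, SE 0.43), against 3.67%. Ackr3 was the 1 of 9 called between fibroblast-like and lymphatic endothelial-like cells (2.54, SE 0.49), against 2.36%. Ackr1 was the 1 of 4 between blood and lymphatic endothelial-like cells (-2.96, SE 0.83), against 1.12%, with 28 and 2 UMIs in the lymphatic endothelial-like cells.

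Between the remaining pairs, Ccl2 was the 1 of 6 that passed in lymphatic endothelial-like against muscle-like cells (0.398% of all genes). It was also the 1 of 6 in muscle-like against pericyte-like cells (0.688%). The PLV muscle sums are 0, so its fitted size depends on the prior count and no difference is read from either pair. No gene of the 10 was called by edgeR for blood endothelial-like against muscle-like cells (0 of 5, background 0.641%), blood endothelial-like against pericyte-like cells (0 of 5, 0.233%) or lymphatic endothelial-like against pericyte-like cells (0 of 4, 0.00%). In these 3 pairs 4, 3 and 2 genes had an unadjusted p under 0.05.

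Some genes of the stress and inflammatory lists also differed between the libraries. Of the 20 stress genes, all tested in each class, 5 were lower and 2 higher in PLV in fibroblast-like cells, against 15.8% of all genes called, and 7 lower and 1 higher in muscle-like cells, against 16.4%. There were 5 lower in blood endothelial-like cells, against 4.47%, 7 in lymphatic endothelial-like cells, against 0.733%, and 6 in pericyte-like cells, against 1.52%, with 0 higher in these 3 classes. The heat-shock gene Hspa1b was lower in PLV in all 5 classes, with log2 fold changes of -2.50 in fibroblast-like, -1.35 in blood endothelial-like, -1.95 in lymphatic endothelial-like, -2.43 in muscle-like and -1.57 in pericyte-like cells. In muscle-like cells 9 of 16 tested inflammatory genes were lower and 1 higher in PLV, against 16.4% of all genes called (list median -0.85, all genes 0.00), among them Irf1 (-1.73), Nfkbia (-1.46) and Tnfaip3 (-3.07), all of which act in or downstream of cytokine signalling. In fibroblast-like cells 1 of 18 was higher, Ptgs2 (2.82, the inducible prostaglandin synthase), and 0 lower, a share below the 15.8% of all genes called. In pericyte-like cells 2 of 10 inflammatory genes tested, Il6 (-2.50) and Cebpb (-2.33), were lower in PLV and 0 higher, against 1.52% of all genes called. In blood endothelial-like cells 1 of 17 was lower, Icam1 (-1.91), and 0 higher, near the 4.47% of all genes called. In lymphatic endothelial-like cells 0 of 15 were called. The part of these genes' shifts in the chemokine differences was not tested. Venular-like cells had higher Sele (4.91, E-selectin), Ier3 (1.53), Nfkbiz (1.65) and Nfkbia (0.99) than other blood endothelial-like cells, beside their Ackr1. There 6 of 14 inflammatory genes were higher and 0 lower, and 9 of 20 stress genes were higher and 1 lower, among them Atf3 (1.91), Jun (1.02), Junb (0.67) and Hsp90aa1 (0.66) as higher, against 13.3% of all genes called.

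Among the other chemokine genes, 24 of the 37 ligands listed and 12 of the 24 receptors, with the 10 genes counted in, had at least 20 UMIs in at least 2 libraries. Ccl21a, the CCR7 ligand of lymphatic endothelium, was counted 1365 and 1040 times in PLV replicates 1 and 2 and 0 times in the mixed library. The single mixed lymphatic endothelial-like cluster was led by Nts, Mmrn1 and Lcn2, without a Lyve1 cluster like that of PLV replicate 1. The Cell Ranger version differs as well, and the part of either in this 0 was not tested. Ackr4, which scavenges CCL19 and CCL21, was highest in lymphatic endothelial-like cells at a mean of 167 CPM (154 to 188 over 3 libraries), and Gpr182, another scavenger, at 91.6 CPM there and 84.3 CPM in venular-like cells. These levels are over classes with at least 10 cells in a library. Among them macrophages had the highest mean for Ccl8, with 2802 CPM in PLV replicate 1 against 731 CPM among the mixed cells. In fibroblast-like cells 8 of 21 ligands tested were higher and 5 lower, against 29.2% of all genes called (median log2 fold change -0.13, all genes -0.03), in blood endothelial-like cells 3 of 19 higher and 13 lower, against 32.5% (median -4.47, all genes -0.02), and in immune cells 13 of 22 higher and 6 lower, against 42.5% (median 3.14, all genes -0.12).

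The genes with the most similar pattern were ranked by Pearson's r over 24 sums (8 classes in 3 libraries) of log2 CPM, as a description; the sums share libraries and depth. The 8 classes are those with at least 10 cells in every library: Pi16-type and other fibroblast-like, capillary-like and venular-like, lymphatic endothelial-like, muscle-like, pericyte-like and Schwann-like cells. No immune class is among them, so Ccl2, Ccl4 and Ccl7, which immune cells led, are given no match. Ccl11 was most like Fap (r = 0.962) and C1ra (0.941), Ccl19 most like C1ra (0.940), and Cxcl14 most like Smoc2 (0.935) and Mmp3 (0.934), all highest in fibroblast-like sums. Ackr3 was most like Car8 (0.898) and Cxcl12 like Rnf144a (0.876). Ackr1 had Vcan (0.775) first and Selp (0.741, P-selectin, which also served to name the venular-like cells) in the third place. Cxcl1 was most like Taok3 (0.774).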

How the data were processed

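The deposited values are UMI counts per gene and barcode from Cell Ranger (6.1.2 for PLV, 4 for the mixed library) on GRCm38, per the submitters' processing notes, with no normalisation visible in the values. The PLV matrices hold 2649 and 730 barcodes and the mixed matrix 896360. Barcodes with at least 500 UMIs, 300 genes, at most 15% mitochondrial and 20% haemoglobin UMIs were kept, predicted doublets (10, 3 and 3) removed, and each library clustered with scanpy 1.11.5 and leidenalg 0.10.2 (2000 variable genes, 50 components, 15 neighbours, resolution 2). Few doublets were marked, so undetected ones may remain. Classes were named from at least 3 markers raised 2-fold (20 CPM added); the rebuilt names are not the authors' and may differ from theirs. UMIs were summed per library and class and tested with edgeR 4.0.16 (quasi-likelihood, TMM, filterByExpr, Benjamini-Hochberg over all genes tested), with DESeq2 1.42.0 as an alternative; other alternatives were resolution 1, 1000 UMIs, doublets kept, no filter, no library term, each library left out and, chosen after seeing the data, the cell with most UMIs left out. The tests were checked on simulated counts. The 10 genes, the lists and the tests were chosen with earlier results of these data known. The rule for named genes takes the 10 in every comparison, other listed chemokine genes with at least 20 UMIs in 2 libraries, up to 4 inflammatory and stress genes with the smallest p per comparison, and, for each of the 10 (not printed for the 3 led by immune cells), the 3 genes with the highest r (log2 of CPM with 10 added). Nothing in the labels says more of the replicates than that they are separate pools, and p-values rest on the spread between these libraries as edgeR estimates it by sharing information across genes, which can be smaller than a single gene's own spread. PCR duplicates are removed by the UMIs. Promoters are from RefSeq (GRCm38.p6) and gene positions from GENCODE on GRCm38.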

Additional observations from a re-analysis of the deposited data

Results flagged for a closer look

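The difference of the PLV to mixed ratio between classes had an adjusted p under 0.05 in an interaction test in edgeR for 16 combinations of gene and pair of classes, and each value is the log2 ratio in the first class minus that in the second. Between fibroblast-like and muscle-like cells it was 2.01 for Cxcl1, 10.46 for Ccl2, 4.41 for Ccl7 (1 and 0 UMIs in PLV muscle-like cells), 3.14 for Ccl11, 2.11 for Ccl19 and 1.97 for Ackr3. Between fibroblast-like and pericyte-like cells it was 4.36 for Ccl2, 5.10 for Ccl7, 3.19 for Ccl11 and 4.73 for Ackr3, where the PLV pericyte-like sums held 1 and 0 UMIs of Ccl7 and 2 and 1 of Ackr3. The Ccl7 value against muscle-like and the Ackr3 value against pericyte-like cells passed the filter on low counts through the fibroblast sums alone, and no difference is read from them. Nor is a difference read from the Ccl7 value against pericyte-like cells, given its PLV sums. Between fibroblast-like and blood endothelial-like cells it was 2.30 for Ackr1 and 1.79 for Ackr3, and between fibroblast-like and lymphatic endothelial-like cells 2.54 for Ackr3. Ackr1 differed between blood and lymphatic endothelial-like cells by -2.96. The Ccl2 values were 10.43 between lymphatic endothelial-like and muscle-like cells and -5.77 between muscle-like and pericyte-like cells. These values and the 10.46 depend on the prior count, since Ccl2 had 0 UMIs in PLV muscle-like cells, and no difference is read from them.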

How the results depend on the processing

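Of 822 alternative values for single genes in class comparisons, 783 kept direction and side of the threshold, 21 lost the call, 16 gained it and 2 changed sign: Ccl4 in blood endothelial-like cells at resolution 1 (0.90, adjusted p = 0.740) and Ccl7 in pericyte-like cells without the mixed library (-3.25, adjusted p = 0.0267; with each library left out it ranged from -3.25 to 0.95). Of 177 PLV against mixed values 162 kept both, 10 lost and 5 gained the call. The Pi16-type comparison called 3 genes, but 5 with no filter on low counts, 0 at resolution 1, 0 with no library term and 1 to 4 with a library left out. PLV against mixed called 1 gene in blood endothelial-like cells, 0 with DESeq2 and 2 at resolution 1; 5 in muscle-like cells and 1 with DESeq2; 2 in pericyte-like cells, 0 with DESeq2, 1 at 1000 UMIs and 0 with doublets kept; and 2 in fibroblast-like cells, 4 without the cell with most UMIs. The class with the highest mean stayed the same at resolution 1 for 5 of 10 genes. It moved between the 2 fibroblast groups for Cxcl14, Ccl11 and Ccl19, from macrophages to a cluster with dendritic cell markers for Ccl4 and from Pi16-type to lymphatic endothelial-like cells for Ackr3, and mean Ccl19 in non-Pi16 fibroblasts moved to 66.1 CPM. In other alternatives counts stayed within 1.5 times. PLV against mixed without either PLV replicate was not run, since no residual degrees of freedom remain. No paired analysis was possible because the mixed library shares only 1 number with the PLV libraries. Some immune classes hold 5 to 8 cells, which limits Ccl2 and Ccl4.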
